A study of Mus musculus with 9 samples.

Results

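The 3 arrays described here are those of triceps, rectus femoris and gastrocnemius, hind and forelimb muscles whose array values had a narrow range, and they were compared with the 4 other arrays from outside the head, those of trapezius, supraspinatus, tibialis anterior and soleus. They make up 7 of the 9 arrays of the series, and the other 2, masseter and digastric, are head muscles used here only as an outside reading. All 9 muscles were taken from male C57BL/6J mice aged 12 weeks, with no allele, treatment or other agent named for any of them. Each muscle has 1 GeneChip Mouse Gene 2.0 ST array, and the labels used here do not state if RNA of several mice was combined, so that muscle, animal and array cannot be told apart. The series asks about positional memory of skeletal muscle, and nothing in its labels sets these 3 muscles apart from the other 4.

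The arrays were grouped by a measured value, the standard deviation (SD) over the 41345 probe sets of the deposited log2 values. Gastrocnemius had 1.919, rectus femoris 1.951 and triceps 1.957, and the wide arrays had 2.033 (supraspinatus), 2.043 (tibialis anterior), 2.046 (trapezius) and 2.077 (soleus). The limit of the grouping was 2, so triceps lay just inside it and supraspinatus just outside. In the head arrays the SD was 2.065 in masseter and 2.043 in digastric, over the limit as in the wide arrays. Because every gene enters that SD, no difference between the sets was tested here, and all values below are descriptions of 3 arrays against 4. An exact permutation test of 3 against 4 arrays could not have gone below 0.0571 in any case.

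Skeletal muscle is built from slow fibres, which burn fat and sugar in many mitochondria, and fast fibres, which rely more on glycogen and glycolysis. Soleus is the classic slow muscle of the mouse leg, while tibialis anterior, gastrocnemius and triceps are mostly fast. Small nucleolar RNAs (snoRNAs) guide chemical marks on ribosomal RNA. The box C/D kind (Snord genes) directs methylation and the box H/ACA kind (Snora genes) directs the conversion of uridine to pseudouridine. Most are cut out of introns of a host gene, often one for a ribosomal or translation protein, or of a noncoding host of the Snhg kind.

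All 7 arrays carried the defining genes of skeletal muscle at high levels. Acta1, the actin of the contractile filament, was between 12.86 and 12.94 on the log2 scale in the 7 arrays, and Ckm, muscle creatine kinase, between 12.26 in soleus and 12.81 in gastrocnemius. Slow myosin Myh7 was 11.71 in soleus, 8.68 in gastrocnemius, 8.56 in trapezius, 7.73 in triceps, 5.60 in rectus femoris, 4.40 in supraspinatus and 4.35 in tibialis anterior. The slow and mixed muscles therefore lay in both sets, and soleus stood above all others.

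Values below, unless said otherwise, are quantile normalized. The ranks of each array were given the mean sorted values of the 7 arrays outside the head. These are called limb arrays here, and trapezius was counted with the forelimb for this purpose. The step brought the SD of every array to 2.004. Differences are narrow minus wide on the log2 scale. Where 3 narrow values stand without muscle names, their order is triceps, rectus femoris, gastrocnemius, and 4 wide values stand in the order trapezius, supraspinatus, tibialis anterior, soleus. A gene is called higher where all 3 narrow arrays lie above all 4 wide arrays and the means differ by at least 1.5-fold, and lower in the mirrored case. Of 22180 genes, 597 (2.69%) were called higher in the narrow arrays and 967 (4.36%) lower. With 1 array left out, higher calls ran from 547 without soleus to 1039 without triceps. Only the count without triceps differed from the main count by over 1.5 times. The rule is easier to meet with fewer arrays, so these counts are not on the same footing as the main one. In the values as deposited 546 genes (2.46%) were called higher and 1463 (6.6%) lower. The calls shared by both forms of the data were 393 higher and 928 lower, which is 72.0% of the deposited and 65.8% of the normalized calls for higher genes, and 63.4% and 96.0% for lower genes. No gene was called in opposite directions.

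The share of calls that were lower moved with the scaling, from 72.8% as deposited to 61.8% after quantile normalization. It was 81.6% with median centring alone, 69.9% with each array divided by its SD and 69.0% with cyclic loess. The median difference of all genes was 0.06 in both main forms of the data, and no scaling moved it by as much as 0.1.

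The excess of lower calls as deposited followed the level of the gene. With the genes in 10 equal bins by mean level, in the lowest bin the median deposited difference was 0.19, and in the highest bin it was -0.25. After quantile normalization these medians were 0.07 and -0.03. In that highest bin 434 genes were called lower as deposited and 214 after normalization, while higher calls went from 70 to 127. The 535 genes called lower only as deposited had a median level of 6.39, against 3.89 for all genes, and the 153 called higher only as deposited had a median level of 2.25. The 95th percentile lay between 7.27 and 7.36 in the narrow arrays and between 7.50 and 7.56 in the wide arrays. Grouping the arrays by their SD largely sets both patterns in advance, so neither is a separate result. Dim genes of the narrow arrays thus read slightly high and bright genes slightly low before the arrays were given equal distributions.

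**Figure D1:**
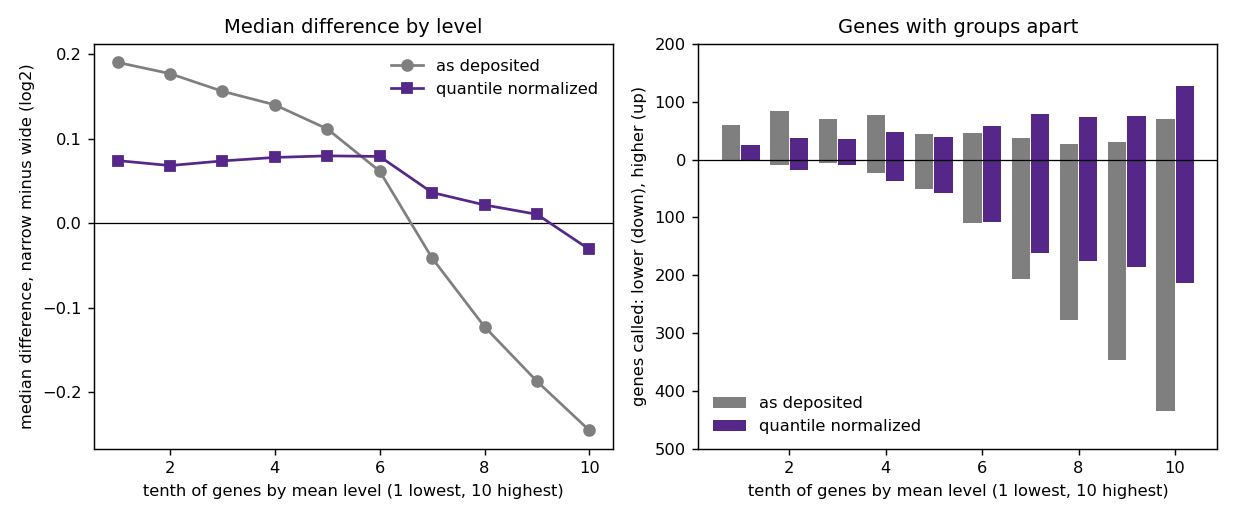
Left, the median difference between the 3 narrow and the 4 wide arrays (log2) in 10 equal bins of the 22180 genes by mean level, as deposited (grey) and after quantile normalization (purple). Right, the number of genes called higher (up) and lower (down) in each bin. The deposited medians run from 0.19 to -0.25, and the normalized ones from 0.07 to -0.03, while lower calls stay in excess in the brighter bins in both.

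Among the 40 gene lists, small nucleolar RNAs had the highest median difference, before and after normalization. Of 73 measured members of the list, 52 (against 2.69% of all genes) were called higher and 0 lower, with a median difference of 0.997. As deposited 42 were called higher and 0 lower, with a median of 0.89. The list mean was 7.42 in triceps, 7.76 in gastrocnemius and 7.63 in rectus femoris. It was 7.09 in trapezius, 6.65 in supraspinatus, 6.41 in tibialis anterior and 6.54 in soleus. The groups did not overlap, and trapezius came nearest to the narrow arrays. The head arrays lay on the wide side, at 6.58 in masseter and 6.03 in digastric.

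The list difference was present in both regions. Within the forelimb, with which trapezius was counted here, triceps against trapezius and supraspinatus had a median of 0.62. Within the hindlimb, rectus femoris and gastrocnemius against tibialis anterior and soleus, it was 1.28. Set against 1 wide array at a time, which was done after the values were seen, the median was 0.59 for trapezius, 1.005 for supraspinatus, 1.30 for tibialis anterior and 1.09 for soleus. Box C/D members had 38 of 47 called higher (median 1.08) and box H/ACA members 14 of 26 (median 0.89). Split by level after the values were seen, the members had 48 of 56 called higher at a mean level of 5 or more and 4 of 17 below it.

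Snora73b, an H/ACA RNA that takes part in the processing of ribosomal RNA, was 7.72 in triceps, 8.78 in gastrocnemius and 8.29 in rectus femoris, against 7.25 in trapezius, 6.25 in supraspinatus, 6.08 in tibialis anterior and 6.39 in soleus, a difference of 1.77. Every narrow array lay above every wide one. Its near-identical copy Snora73a differed by 1.69, and reads of the 2 genes by probes of similar sequence may not be separate, so they count as uncertain for either copy alone. Snord17, a C/D guide RNA, was 8.25, 8.46 and 8.53 in triceps, rectus femoris and gastrocnemius and between 6.54 and 7.38 in the wide arrays. Snord16a, which lies in an intron of a ribosomal protein gene, was 11.05, 11.12 and 11.35 against 9.44 to 10.26. Of the members not called, Snord71 was 8.61, 8.49 and 9.17 in the narrow arrays and 8.60 to 9.43 in the wide, a difference of -0.10 with groups that overlapped.

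The host genes, each read by its probe set with the highest mean level, did not share the difference. For 59 snoRNAs, 1 measured gene of the gene table held the snoRNA in its span, and these came to 45 hosts. The median difference was 1.09 for the snoRNAs and -0.17 for the hosts. Of the snoRNAs 39 were called higher, and of the hosts 0 were called higher and 5 lower (2.69% and 4.36% of all genes). Each of the 59 snoRNAs had a larger difference than its host read in this way. This depended on the probe set chosen. Snord110 differed by 0.87 and its host Nop56 by -0.43, but other Nop56 probe sets differed by 1.35 and 0.96, both called higher. The 5 hosts called lower, named after their values were seen, were Ipo7, a nuclear import receptor, at -0.84, Gnl3, the nucleolar GTPase nucleostemin, at -0.68, Cct6a, a chaperonin subunit, at -0.66, Rpl4, a protein of the large ribosomal subunit, at -0.63, and Rc3h2, an RNA binding ubiquitin ligase, at -0.62. Snord69, inside Gnl3, differed by 1.43, Snora23, inside Ipo7, by 1.10, and Snord16a, inside Rpl4, by 1.35. The 37 protein coding hosts had a median of -0.29 and the 8 long noncoding hosts a median of 0.12.

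**Figure D2:**
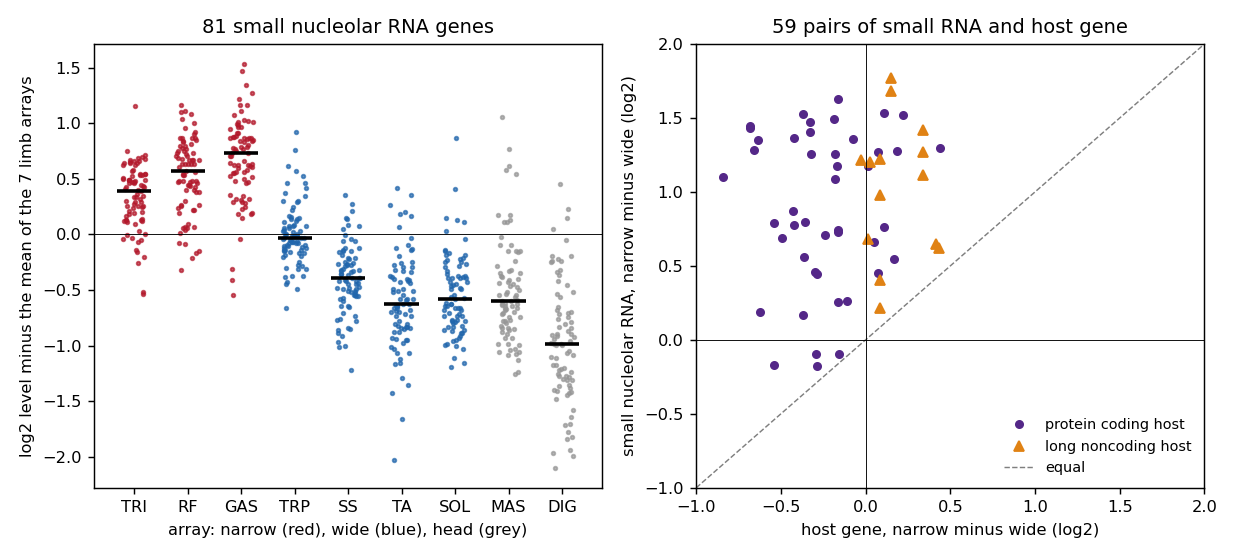
Left, the level of each of 81 genes annotated as small nucleolar RNA (points) minus its mean over the 7 limb arrays, by array, with the median as a bar. Right, the difference of 59 Snord and Snora genes, 1 of them annotated as small nuclear RNA, against that of the host gene in whose span they lie, with the dashed line at equality. Each host is read by its probe set with the highest mean level. The narrow arrays (red) lie above the wide (blue) and head (grey) arrays, and all 59 points lie above the line.

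Other short noncoding RNAs, singled out after their values were seen, were mostly positive, and some were not called. The Y RNAs, short RNAs of the Ro ribonucleoprotein, were called higher in 2 of 2 cases. Rny1 was 11.36 in triceps, 11.47 in gastrocnemius and 11.53 in rectus femoris against 10.14 to 10.64 in the wide arrays, a difference of 1.02, and Rny3 differed by 1.43. Of 3 genes for the RNA of RNase P, which trims transfer RNA, 2 were called higher, Rpph1 at 0.97 and Rprl2 at 1.14. The ribosomal 5S gene n-R5s136 was 12.19, 12.25 and 12.25 in the narrow arrays and 11.36 to 11.75 in the wide, a difference of 0.65. Of 5 guide RNAs of the Scarna kind 1 was called, Scarna10 at 0.84, and the telomerase RNA Terc (0.89) was not. Of 6 genes annotated as small nuclear RNA 1 was called, Snord73b at 1.09, while Rnu3a (1.40), Rnu12 (0.54), Rnu11 (0.49) and Rnu5g were not. The abundant Rn7sk, which holds the elongation factor P-TEFb inactive, was near the top of the scale in all arrays and did not differ (0.00). In all, 62 of 99 genes of these small classes, snoRNAs included, were called higher and 0 lower. Without them 535 genes were called higher and 967 lower, so the small classes are a small part of all calls.

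Several protein coding genes that hold a snoRNA in their span had probe sets that disagreed, a comparison made after the values were seen. Ptcd3, a protein of the mitochondrial ribosome, was among the 12 named genes with the largest higher difference, small RNAs left out, at 1.34, but its other probe set differed by -1.09 and was called lower. Ep400, a chromatin remodelling ATPase, had probe sets at 1.28 and -0.06. Zfas1, a long noncoding snoRNA host, had probe sets at 1.26 and 0.18. The same split was present in Nop56, a core protein of C/D ribonucleoproteins, at 1.35, 0.96 and -0.43, and in Eif4a2, an RNA helicase of translation initiation, at 1.51, 0.93 and -0.08. Of 50 genes with several probe sets and a snoRNA in their span, 13 (26.0%) had a probe set called higher, against 73 of 1032 (7.07%) other genes with several probe sets. For 9 of those 13 genes, and for 29 of those 73, another probe set had a negative difference. A probe set was called lower in 5 of the 50 and 83 of the 1032 genes, and their median levels were 5.16 and 3.97. Which part of the gene each probe set reads was not analysed here, so the direction of Ptcd3 and Ep400 holds for 1 probe set and not for the gene, while the probe sets of Zfas1 differ in size.

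Genes of microRNAs, which are processed from hairpins and silence messenger RNAs through a seed of 7 bases, were split. Of 478 measured, 26 were called higher and 14 lower (background 2.69% and 4.36%), with a median difference of 0.07 and a median level of 2.33, a level at which no detection call was used here. The array reads the hairpin or its primary transcript and not the mature strand. Among the 11 let-7 genes 4 were called higher and 0 lower, against 5.44% and 2.93% of all microRNA genes. Their mature 5' strands, which share 1 seed, are printed from RefSeq (GRCm38.p6) with the seed, bases 2 to 8, in capitals, beside the strand of the uncalled Mirlet7a-1 and those of Mir335 and Mir107, chosen after their values were seen:
mmu-let-7b-5p (chr15:85707325-85707346, plus strand): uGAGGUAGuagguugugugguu
mmu-let-7c-5p (chr16:77599672-77599693, plus strand): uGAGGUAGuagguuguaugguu
mmu-let-7e-5p (chr17:17830366-17830387, plus strand): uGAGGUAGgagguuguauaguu
mmu-let-7f-5p (chrX:151912353-151912374, plus strand): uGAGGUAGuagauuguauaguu
mmu-let-7a-5p (chr13:48538239-48538260, minus strand): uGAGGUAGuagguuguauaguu
mmu-miR-335-5p (chr6:30741314-30741336, plus strand): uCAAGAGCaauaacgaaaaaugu
mmu-miR-107-3p (chr19:34820700-34820722, minus strand): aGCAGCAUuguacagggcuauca

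Mirlet7c-1 was 2.88 in triceps, 2.65 in gastrocnemius and 2.28 in rectus femoris, against 1.53, 1.58, 1.36 and 1.75 in trapezius, supraspinatus, tibialis anterior and soleus. Mirlet7b, Mirlet7e and Mirlet7f-2 differed by 0.78, 0.81 and 0.86. Mirlet7a-1, with the same seed, differed by 0.11, and its neighbour on chromosome 13, Mirlet7f-1, by -0.18, although its mature 5' strand is the one that Mirlet7f-2 also gives. Both Mirlet7f genes lay at low levels, and so did the called Mirlet7b and Mirlet7c-1, at mean levels of 2.27 and 1.99. Mir335, in an intron of the imprinted gene Mest, differed by 1.21, and Mir107, in an intron of Pank1, by -1.40. The median microRNA difference ran from 0.01 in the fifth of hairpins with the lowest GC content to 0.24 in the fifth with the highest (0.11 and 0.18 as deposited), where the median level was also highest at 4.14 against 1.48.

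Lists of the respiratory chain, the citrate cycle and fatty acid use had negative medians in the narrow arrays, although most of their members were not called, and genes of glycolysis did not share the sign. Of 79 nuclear genes of the respiratory chain, 13 were called lower and 0 higher, against 4.36% of all genes, with a median difference of -0.34. As deposited 29 were called lower, with a median of -0.51. The list mean was 7.99 in triceps, 7.78 in gastrocnemius and 7.74 in rectus femoris, and 8.13 in trapezius, 8.22 in supraspinatus, 8.17 in tibialis anterior and 8.24 in soleus. The groups did not overlap, and the median kept its sign in all 17 other settings, from -0.55 to -0.20. Within the forelimb it was -0.20 and within the hindlimb -0.44.

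Cox7b, a subunit of cytochrome c oxidase, was 7.44 in triceps, 6.91 in gastrocnemius and 7.11 in rectus femoris, against 7.79, 8.32, 8.19 and 8.18 in trapezius, supraspinatus, tibialis anterior and soleus, a difference of -0.97. Cycs, cytochrome c itself, was 9.72, 9.69 and 9.70 against 10.43, 10.55, 10.60 and 10.63, a difference of -0.85. The muscle isoforms Cox8b and Cox7a1 differed by -0.92 and -0.81, and Ndufv2 of complex I by -0.81. Sdhc of complex II (-0.52) and Ndufs1 of complex I (-0.43) were among the 16 members called lower only as deposited.

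Enzymes of the citrate cycle had 3 of 15 members called lower (background 4.36%) and 0 higher, with a median of -0.25, against 5 called and a median of -0.44 as deposited. Dld, the shared dehydrogenase subunit of the pyruvate and oxoglutarate complexes, was 7.37, 7.18 and 7.37 in triceps, rectus femoris and gastrocnemius and 8.46, 8.41, 8.43 and 8.13 in the wide arrays, a difference of -1.05. Sucla2, a subunit of succinyl-CoA synthetase, and Pdhb, a subunit of pyruvate dehydrogenase, differed by -0.79 and -0.72. All 15 members had a negative difference.

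Genes of fatty acid use had 8 of 19 members called lower and 0 higher (background 4.36%), with a median of -0.70, against 10 called and -0.84 as deposited. Acadm, the medium chain acyl-CoA dehydrogenase, was 8.98 in triceps, 8.81 in gastrocnemius and 8.49 in rectus femoris, against 10.05 in trapezius, 9.77 in supraspinatus, 9.41 in tibialis anterior and 10.07 in soleus. Cd36, a fatty acid transporter, differed by -0.96, and Pdk4, the kinase that turns pyruvate dehydrogenase off when fat is burned, by -0.90. Tibialis anterior was the lowest wide array for all 8 called members, and against it alone the list median was -0.16. The list mean was 7.999 in tibialis anterior and 8.10 in triceps, so the sets overlapped in the mean although the 8 genes were apart. The median kept its sign in all 17 other settings.

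Slow fibre genes had a median of -0.81, with 1 of 12 members called lower, against 3 called and -0.98 as deposited, but the median rested on soleus and was 0.20 without it. The list mean was 9.74 in soleus, 6.94 in trapezius, 5.40 in supraspinatus and 5.29 in tibialis anterior, and 6.12, 5.09 and 6.61 in triceps, rectus femoris and gastrocnemius, so the sets overlapped. Myoz2, a Z-disc protein of slow fibres, was the called member and had the largest lower difference of all genes that could be named, -2.45. It was 6.66 in triceps, 7.42 in gastrocnemius and 4.75 in rectus femoris, against 8.45 in trapezius, 7.47 in supraspinatus, 7.75 in tibialis anterior and 11.21 in soleus, and the difference was -1.62 without soleus. Gastrocnemius and supraspinatus differed by little, while soleus stood apart.

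Fast fibre genes had a median of 0.13 (0.12 as deposited) with 0 of 14 called in either direction, and the median was -0.09 without soleus. Genes of glycolysis and glycogen had a median of 0.21 (0.17 as deposited), which was -0.02 without soleus. Of 15 such genes 0 were called higher and 1 lower, Gbe1, the glycogen branching enzyme, at 6.23, 5.89 and 6.55 in triceps, rectus femoris and gastrocnemius against 6.98 to 7.51 in the wide arrays. These 2 lists differed by less than soleus alone moved them.

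Muscle identity genes had 5 of 18 members called lower (background 4.36%) and 0 higher, 6 as deposited, with medians of -0.21, or -0.13 without soleus, and -0.20. The direction of the list median turned with the scaling, to 0.11 with each array divided by its SD and 0.01 with cyclic loess. Mybpc1, slow myosin binding protein C, was 10.47, 9.84 and 9.68 in the narrow arrays and 10.97 to 11.54 in the wide, a difference of -1.35. Mb, myoglobin, the oxygen store of the fibre, differed by -1.03, Klhl41, a stabiliser of the thin filament, by -0.85, Neb, the ruler of that filament, by -0.81, and Smpx, a small muscle protein, by -0.77. The list mean was between 10.67 and 10.71 in the narrow arrays and between 10.87 and 11.02 in the wide, so the sets did not overlap. Not every member shared this, since 7 of 18 had a positive difference. Acta1 and Ckm, both near the top of the scale, differed by -0.04 and 0.19.

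Lists of ribosomes, translation, the proteasome and protein breakdown moved toward all genes with the normalization. For the cytosolic ribosome the median went from -0.28 as deposited to -0.09, with 5 and then 1 of 64 members called lower and 1 called higher in both. For the mitochondrial ribosome it went from -0.20 to -0.02 (5 and then 3 of 70 called lower), for translation factors from -0.27 to -0.05 (6 and then 2 of 49 lower, 0 and then 1 higher), and for the proteasome from -0.09 to 0.06 (5 and then 2 of 38 lower, 0 and then 1 higher). Protein folding in the endoplasmic reticulum went from -0.16 to -0.01 (3 and then 1 of 17 lower). Genes of protein breakdown and glucocorticoid response went from -0.19 to -0.01, with 1 of 19 called in each direction in both. For comparison, the 2 highest level bins of all genes had deposited medians of -0.19 and -0.25.

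Splicing factors had 5 of 46 called lower (background 4.36%) and 0 higher with a median of -0.11, against 11 and -0.25 as deposited. Hnrnpdl and Hnrnpu, RNA binding proteins of the nucleus, differed by -0.82 and -0.80, and Sf3b1, a core protein of the U2 complex, was 5.91, 6.09 and 6.07 in the narrow and 6.66 to 6.94 in the wide arrays. Chaperones had 4 of 18 called lower (5 as deposited) with medians of -0.18 and -0.34, and Hspb7, a small heat shock protein of muscle, differed by -1.43. Nuclear long noncoding RNAs had 3 of 11 called lower in both forms, with medians of -0.17 and -0.27. Tug1 was 4.56, 4.20 and 3.95 in triceps, rectus femoris and gastrocnemius and 5.63, 5.96, 6.15 and 6.24 in the wide arrays, Kcnq1ot1, the transcript of an imprinted domain, differed by -0.85, and Norad, which binds Pumilio proteins, by -0.70. Of the 11 members 5 had a positive difference. RNA length within this list was not analysed here.

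Long genes were called lower more often than short ones, a comparison added after the values were seen. Among protein coding genes with a mean level from 4 to 7, the fifth with the shortest span (median 4.41 kb) had a median difference of 0.16 and 1.94% of genes called lower. The fifth with the longest span (median 120 kb) had a median of -0.13 and 13.2% called lower. Higher calls went from 5.58% to 1.76% over the same groups. In genes with a level of 7 and over the share called lower went from 6.07% to 13.7%, and under 4 from 0.449% to 2.02%. Higher calls hardly changed at 7 and over, from 3.51% to 3.19%, and went from 2.52% to 0.673% under 4. Span and level are related across genes, and genes are not independent replicates, so these shares are a description of the 7 arrays. RNA quality was not analysed here, and its part in this pattern was not tested.

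**Figure D3:**
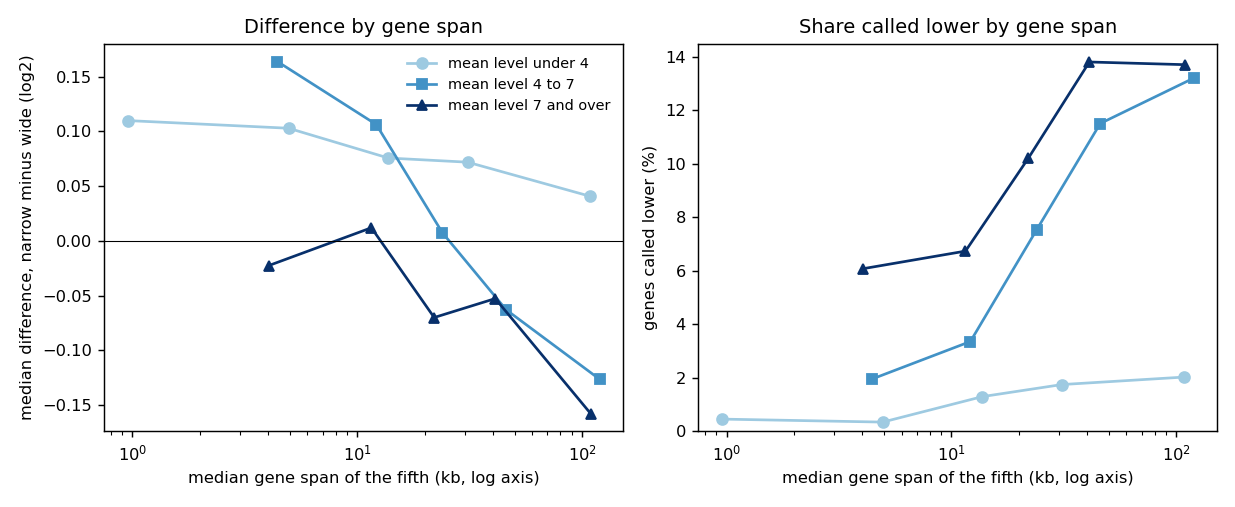
Median difference between narrow and wide arrays (log2, left) and share of genes called lower (percent, right) for protein coding genes in 5 equal groups by genomic span (kb, log axis), at 3 ranges of mean level. At levels from 4 to 7 the median runs from 0.16 to -0.13 and the share called lower from 1.94% to 13.2%.

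Markers of other cell types were split in direction. Fibroblast and matrix genes had 7 of 17 called higher and 0 lower (background 2.69%), with a median of 0.45, against 1 called and 0.30 as deposited, so most of these calls appeared with the normalization. The list mean was 8.33 in triceps, 7.99 in gastrocnemius and 8.36 in rectus femoris, and 7.60, 7.95, 7.96 and 7.82 in trapezius, supraspinatus, tibialis anterior and soleus, and the median was 0.25 without trapezius. Col6a3, a chain of the collagen that surrounds each fibre, was 8.24, 8.60 and 8.16 against 7.29 to 7.68, and Col5a1 and Col6a2 differed by 0.79 and 0.70. Macrophage genes had a median of 0.45 with 14 of 14 positive, but only Lyz2, macrophage lysozyme, was called (0.93), and the median was 0.22 without triceps.

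Endothelial markers had 2 of 14 called lower (background 4.36%) and 0 higher with a median of -0.26, or -0.11 without soleus, against 4 and -0.45 as deposited. Ptprb, a phosphatase of vessel walls, differed by -0.92 and Emcn, a sialomucin of capillaries, by -0.65. The list mean was between 6.09 and 6.28 in the narrow arrays and between 6.16 and 6.90 in the wide, so the sets overlapped, and trapezius was the low array of the wide set. In bulk tissue fewer cells of a type and less RNA per cell cannot be told apart. Smooth muscle and pericyte markers had a median of -0.04 (-0.25 as deposited) with 0 of 10 called and 1 called lower as deposited.

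Both lists of fat cell markers had their highest mean in trapezius. Brown adipocyte genes had a median of -0.76 (-0.69 as deposited) and 3 of 9 called lower (background 4.36%). That median lay between -0.80 and -0.71 with any 1 array left out. Against single wide arrays it was -0.69 for trapezius, -0.67 for supraspinatus, -0.43 for tibialis anterior and -0.52 for soleus. Ucp1, the uncoupling protein that defines brown fat, was 9.27 in trapezius, 5.06 in supraspinatus and between 2.22 and 2.43 in the other 5 limb arrays. Of the called members Cox8b and Cox7a1 are also in the respiratory chain list, and Dio2, which activates thyroid hormone, was between 2.23 and 3.44. White adipocyte genes had a median of -0.36 (-0.40 as deposited) with 1 of 13 called lower, Fabp4, the fatty acid binding protein of adipocytes, at 7.84, 8.02 and 7.33 against 8.43 to 10.33, and the list median was 0.16 without trapezius. The part of fat in the metabolic lists was not tested. Against tibialis anterior alone, whose Ucp1 was 2.35, the medians were -0.33 for the respiratory chain, -0.24 for the citrate cycle and -0.16 for fatty acid use.

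Regulators with a daily or activity rhythm gave a few called genes in each direction. Of 15 clock genes 2 were called higher and 1 lower (background 2.69% and 4.36%), with medians of 0.23 and, as deposited, 0.18. Clock itself was 5.86, 6.10 and 5.82 in triceps, rectus femoris and gastrocnemius against 6.68, 7.20, 7.39 and 7.51 in the wide arrays, while Bhlhe41, a repressor of the clock, and Dbp, an output factor, differed by 0.87 and 0.78. The labels used here state no hour of sampling. Immediate early genes had 1 of 21 called higher, Junb at 0.77, and a median of 0.04 (-0.08 as deposited). Tsc22d3, a glucocorticoid target also known as Gilz, was 6.80, 7.11 and 7.15 in the narrow arrays against 5.78 to 6.55.

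Myogenic and satellite cell genes had 2 of 16 called higher, Myod1 at 0.83 and Myog at 0.76, both muscle-determining factors, with a median of 0.09 (0.03 as deposited). Over all genes 2.69% were called higher and 4.36% lower. Neuromuscular junction genes had 2 of 13 called higher, Etv5 at 0.85 and Ache, acetylcholinesterase, at 0.69, with a median of 0.00 (-0.13). Interferon response genes had 2 of 16 called higher, Irf7 at 0.65 and Ifit1 at 0.61, and a median of 0.34 (0.28) that was 0.06 without triceps. Hox genes, the positional genes of the series, had 1 of 36 called higher, Hoxb8 at 0.79, and 1 lower, Hoxa2 at -0.65. Each count is 2.78% of the list, close to or below the shares over all genes. The Hox median was 0.26 (0.27) with 32 of 36 positive, at a median level of 3.64. Cell cycle genes had 1 of 19 called higher, Aurka, a mitotic kinase, at 0.80, and a median of 0.15 (0.18).

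Tendon genes had a median of 0.31 (0.15 as deposited) with 0 of 10 called, and it was -0.17 without trapezius. Lymphocyte markers had a median of 0.17 (0.25) with 0 of 12 called, Schwann cell markers -0.05 (0.00) with 0 of 7, and keratinocyte markers 0.04 (0.03) with 0 of 9. Zinc finger genes had 5 of 336 called higher (1.49%) and 15 lower (4.46%) with a median of 0.00 (0.02), against 2.69% and 4.36% of all genes. Of the erythroid list only 1 of 8 genes was measured, and 0 genes were measured of the lists of histones and of the mitochondrially encoded respiratory chain.

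Gene families that muscle does not use served as a reading of the low end of the scale. Olfactory receptors, at a median level of 1.61, had a median difference of 0.21 as deposited and 0.11 after normalization, with 59 and then 32 of 1088 called higher and 3 lower in both. The 32 are 2.94% of the list, against 2.69% of all genes. Vomeronasal receptors went from 0.21 to 0.10 (13 and then 7 of 285 higher), keratin associated genes from 0.19 to 0.11 (2 of 51 higher in both), defensins from 0.23 to 0.19 (1 of 51 in both) and taste receptors from 0.16 to 0.08 (0 of 38 in both). After normalization these medians lay at or above the 0.07 to 0.08 of the lower level bins of all genes, and the defensins lay furthest above. All genes include these families, so the bins are not a separate baseline.

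**Figure D4:**
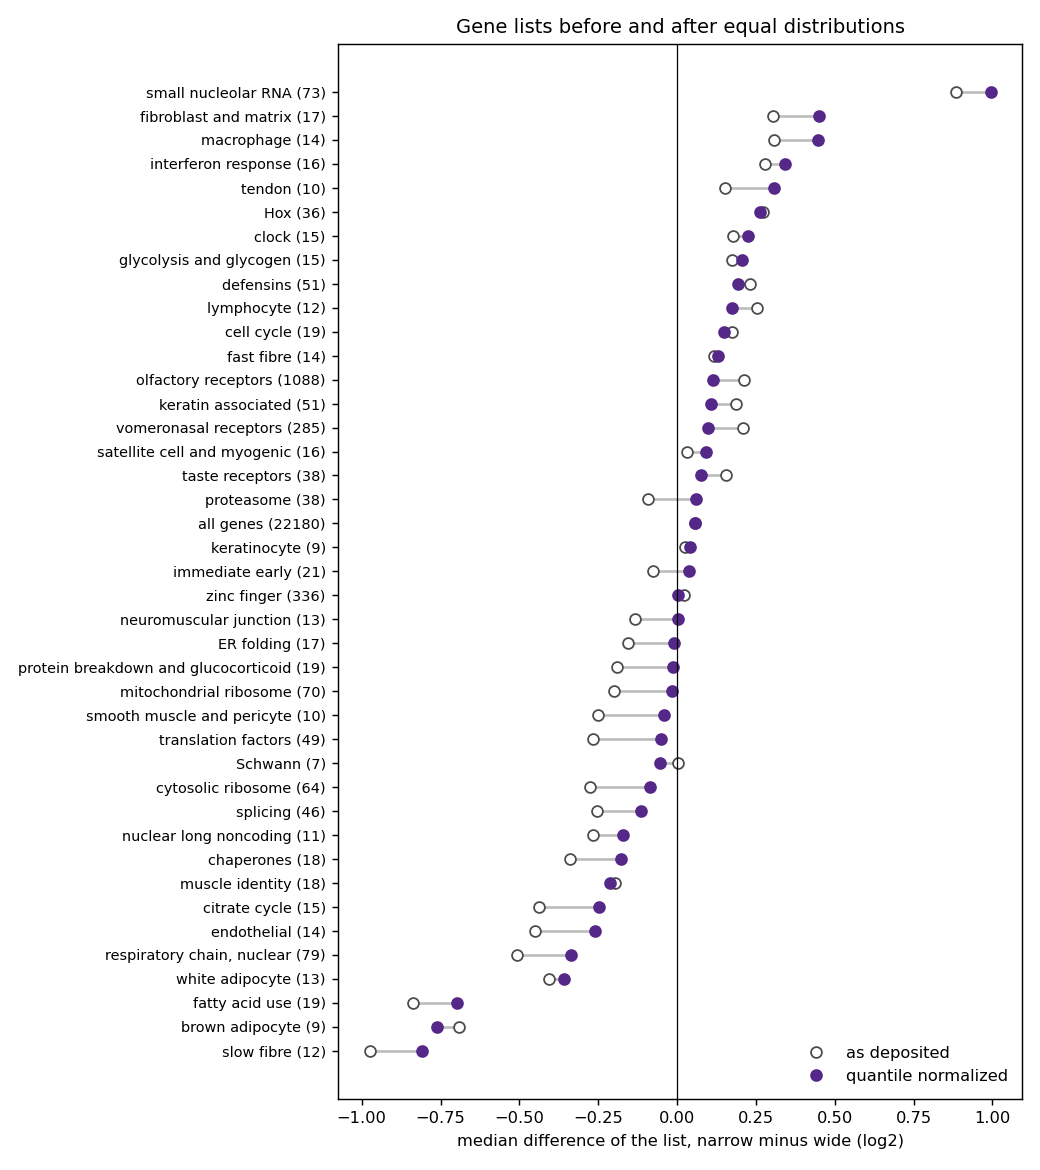
Median difference between narrow and wide arrays (log2) of each gene list with at least 3 measured members, as deposited (open circles) and after quantile normalization (filled), with the number of measured genes in brackets. Small nucleolar RNA stays at 0.89 and 0.997, while the cytosolic ribosome moves from -0.28 to -0.09 and olfactory receptors from 0.21 to 0.11.

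Predicted genes, microRNAs, other small RNAs, immunoglobulins and olfactory receptors were left out of the named genes that follow, so that Snora73b (1.77), for one, is not among them. The 12 with the largest higher difference were led by Smox, spermine oxidase of polyamine breakdown. It was 9.73 ± 0.22 (SD, n = 3) in the narrow arrays, at 9.78 in triceps, 9.92 in gastrocnemius and 9.48 in rectus femoris, against 7.73 in trapezius, 8.74 in supraspinatus, 8.97 in tibialis anterior and 5.28 in soleus. The difference was 2.05, and 1.251 without soleus. Pfkfb3, which makes the main activator of phosphofructokinase, was 8.11, 8.57 and 8.15 in the narrow arrays against 7.01, 7.35 and 7.33 in trapezius, supraspinatus and tibialis anterior and 3.53 in soleus. Its difference was 1.97, and 1.05 without soleus.

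Mical2, an enzyme that oxidises actin, was 8.98 in triceps, 8.86 in gastrocnemius and 8.93 in rectus femoris, against 6.71, 8.15, 7.50 and 6.14 in trapezius, supraspinatus, tibialis anterior and soleus, a difference of 1.80. The narrow arrays were alike, with an SD of 0.06, and the wide arrays were spread, with an SD of 0.88. Ky, a muscle peptidase, was 8.67, 8.81 and 8.81 against 6.34 to 8.06, a difference of 1.30. Nmrk2, a muscle kinase of NAD synthesis, differed by 1.21 and Fbp2, muscle fructose bisphosphatase, by 1.247, or 0.76 without soleus. Frg2f8 (1.60), the T cell receptor segment Trav14d-3-dv8 (1.27) and Pramel16 (1.22, or 0.64 without gastrocnemius) lay between 1.32 and 4.11 in all 7 arrays, and no detection call was used here.

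With the same classes left out, which omits the microRNA genes Mir1933 (-2.41) and Mir1970 (-1.62), the 12 named genes with the largest lower difference were led by Myoz2, given above. Cd59a, an inhibitor of complement on the cell surface, was 4.47 in triceps, 5.94 in gastrocnemius and 4.71 in rectus femoris, against 7.001, 6.78, 6.66 and 7.74 in trapezius, supraspinatus, tibialis anterior and soleus, a difference of -2.01. Cep85l, a centrosomal protein, was 4.11, 4.28 and 4.43 against 6.15, 5.73, 6.09 and 6.31, a difference of -1.80. In both genes the sets did not overlap, and gastrocnemius lay above the other narrow arrays for Cd59a. Trpm7, a magnesium channel joined to a kinase, was 4.57, 4.07 and 4.03 against 5.44 to 6.29 (-1.70), and Tug1 differed by -1.76.

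Tma7, a small ribosome-associated protein, was 5.60, 5.42 and 5.47 in the narrow arrays and 6.82 to 7.57 in the wide, and its 2 probe sets differed by -1.70 and -1.56. Lmod2, which starts actin filaments in muscle, was 7.39, 7.05 and 7.82 against 8.94, 8.81, 8.48 and 10.12 (-1.67). Fndc5, the precursor of the secreted peptide irisin, was 6.76, 6.09 and 6.84 against 7.94, 7.95, 7.51 and 9.08 (-1.56). Egln3, a hydroxylase that marks hypoxia factors for breakdown, differed by -1.60, Agbl1, a carboxypeptidase of tubulin, by -1.81, Dusp11, an RNA phosphatase, by -1.57 and AW549877 by -1.60. Each of the 42 named genes kept its sign in every scaling, filter, region and left-out array that was run. For genes called after normalization, the call itself fixes the sign in each region and with any array left out. For them only the other scalings and filters could have turned it.

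**Figure D5:**
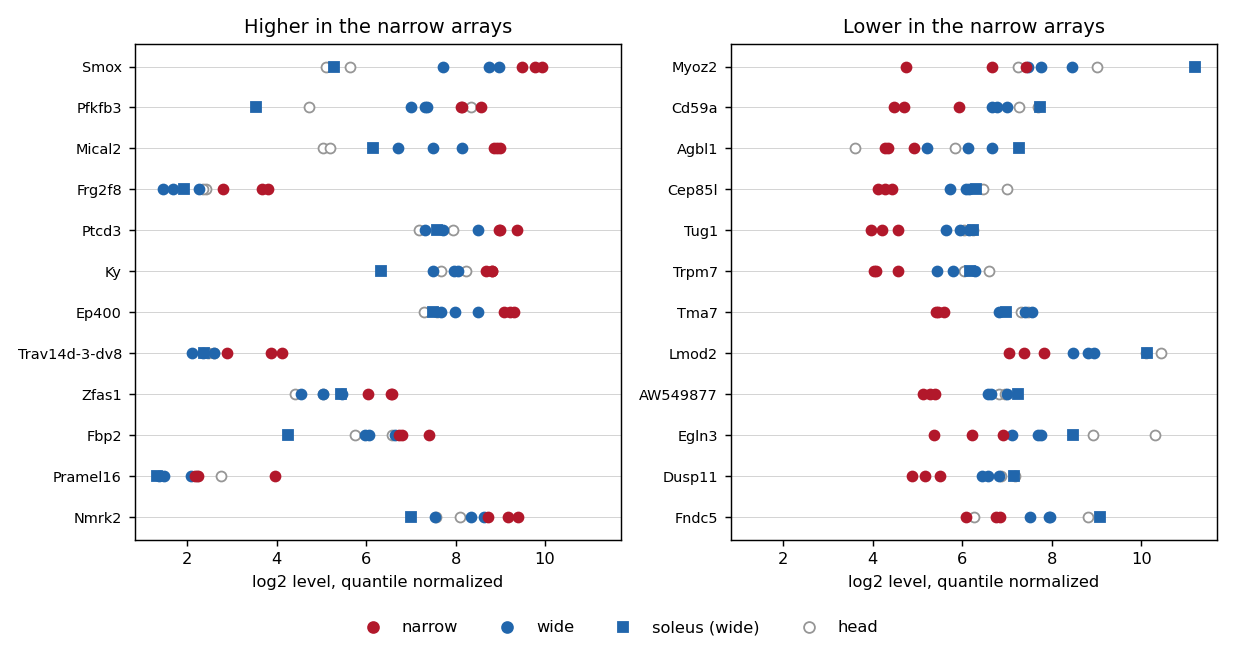
Quantile-normalized log2 level of the 12 named genes with the largest higher (left) and lower (right) difference, small RNAs left out, 1 point for each array: narrow in red, wide in blue with soleus as a square, head in open grey. For Smox and Pfkfb3 the soleus point, at 5.28 and 3.53, lies far below the other wide arrays, while for Cep85l and Tma7 the sets are close within themselves.

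Some named genes were called in only 1 form of the data, with the same classes left out. Among those called lower only as deposited were Smtnl1, a contractile regulator (-1.88 as deposited, -1.71 normalized), Casq2 (-1.35, -1.15), the calcium store of slow fibres, whose normalized difference was -0.51 without soleus, Fhl1 (-1.27, -1.08), a LIM protein, whose difference was -0.72 without rectus femoris, the noncoding Lncpint (-1.19, -0.95) and Pank1 (-1.18, -1.07), a kinase of coenzyme A synthesis. For these the narrow and wide arrays touched after normalization, and the size of the difference stayed above the fold limit. Smtnl1 was 6.12, 4.52 and 6.25 in the narrow arrays and 6.12 in tibialis anterior. Called higher only as deposited were Actc1, cardiac actin (1.17, 1.23, and 0.45 without soleus), and, at low levels, Rps4l-ps (0.97 in both), Vmn1r7 (0.90, 0.86), BC053393 (0.79, 0.70, and 0.26 without gastrocnemius) and Zscan4c (0.78, 0.69).

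Called higher only after normalization were, beside the larger Snora75 (1.63), Snora7a (1.36) and Snora28, Fbp2, Nmrk2, Slc16a3 (0.99 as deposited, 1.20 normalized), which exports lactate, Parm1 (0.86, 1.06) and Slc25a25 (0.78, 1.03), a mitochondrial carrier of ATP. Slc16a3 was 9.03, 8.89 and 9.03 in the narrow arrays against 7.80, 8.32, 8.78 and 6.21 in trapezius, supraspinatus, tibialis anterior and soleus. Without soleus Slc16a3 differed by 0.68 and Parm1 by 0.56. Called lower only after normalization were the histone gene H2aw (-0.99), the receptor Mrgpra1 (-0.78), Apold1 (-0.74), Zfp938 (-0.67) and Ofd1, a protein of the cilium base (-0.66). Over all 204 genes called higher only after normalization the median level was 5.76, and over the 39 called lower only then it was 3.15.

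The head arrays lay on the wide side for most called genes. The grouping did not use them, but their deposited SD was over its limit too, so they are no independent reading. Both head arrays were nearer to the wide mean than to the narrow mean for 516 of the 597 genes called higher (86.4%) and for 894 of the 967 called lower (92.5%), against 57.7% of all genes. As deposited these shares were 80.2%, 94.8% and 58.9%. All genes include many whose narrow and wide means hardly differ, so their share is not a like baseline for called genes. With 2 head arrays no test was made. In the first principal component of the 7 normalized arrays, which held 38.4% of the variance, all 3 narrow arrays had positive and all 4 wide arrays negative loadings, from 0.51 in gastrocnemius to -0.54 in soleus. As deposited it held 42.4%. With the head arrays included it held 38.5%, and masseter (-0.38) and digastric (-0.40) lay with the wide arrays.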

How the data were processed

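The authors deposited 1 log2 value per probe set and array, made with GCRMA per the submitters' processing notes. That the scale is log2 follows from the range of values, and no build of the array design was used here. Of 41345 probe sets 25335 carried a gene name, 23521 a single gene. Symbols of 23328 were updated through the GRCm38.p6 gene table, and 193 kept the array's symbol. A gene was represented by its probe set with the highest mean over 9 arrays (1082 of 22180 genes had several). Arrays were quantile normalized over the 7 limb arrays and set beside values as deposited, median centring, division by the SD, and cyclic loess (limma 3.58.1, R 4.3.3). Other steps used Python 3.11.15, numpy 2.4.6 and pandas 2.3.3. The call code was also run on simulated data, and those results are not given here. Precision is limited by the number of arrays.

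Members and gene lists were chosen with earlier results of these data known. Named genes were the 12 largest calls in each direction, the 5 largest called only as deposited and only after normalization in each direction, and list members. Predicted genes, Rik, microRNA, small RNA, immunoglobulin and olfactory symbols were left out of the 12, and also of the 5, to which the stated rule had not extended this. Alternatives were other scalings, filters, fold minimums, limb regions and left-out arrays.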

Additional observations from a re-analysis of the deposited data

Results flagged for a closer look

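Among 82 items, 40 list means and 42 named genes, 7 had 1 of the 4 wide arrays far from the other 3. For 4 replicate values chance would give about 1 in 20. The wide arrays are 4 different muscles, and the named genes were chosen by their calls. That rate is therefore not a like baseline. Soleus was low for the fast fibre list mean, at 10.57 against 11.81 to 11.88, for Pfkfb3, at 3.53 against 7.01 to 7.35, and for Actc1, at 8.19 against 11.08 to 11.58. It was high for the neuromuscular junction list, at 5.58 against 5.34 to 5.36. Supraspinatus was low for muscle identity genes, at 10.87 against 11.00 to 11.02. Trapezius was high for the interferon response list, at 4.16 against 4.04 to 4.06, and low for Mrgpra1, at 3.83 against 4.57 to 4.67.

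In 2 lists every narrow array lay above every wide array in one region and below in the other, and the difference was not tested. Means of other lists also had opposite signs, with arrays that overlapped in at least 1 region. The tendon list mean differed between narrow and wide arrays by 0.81 in the forelimb and -0.46 in the hindlimb, 1.28 apart. The defensin list mean differed by -0.04 and 0.23, with -0.27 between them.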

How the results depend on the processing

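The 7 arrays give no replicate of a muscle, so a value was taken as moved where it shifted by more than the SD between arrays, or a count by over 1.5 times. The 42 named genes kept their direction, which for most the call rule fixes in regions and with arrays left out, while some list medians below turned. The number of genes called lower was 1463 as deposited, 1711 with median centring, 1619 in hindlimb arrays and 1706 against tibialis anterior, and 197, 1801 and 2147 with a 2-fold, a looser and no fold minimum. The number of genes called higher was 385 with median centring, 1296 in forelimb and 1508 in hindlimb arrays and 1175 against tibialis anterior, and 83, 2029 and 2842 with those fold minimums. Fewer arrays lie apart more easily. Counts from a region, against tibialis anterior alone or with an array left out are therefore not on the same footing as the main counts. As deposited the head arrays were nearer the wide mean for 80.2% of higher and 94.8% of lower calls. As deposited, the list medians that moved were -0.51 (respiratory chain), -0.44 (citrate cycle), -0.20 (mitochondrial ribosome), -0.28 (cytosolic ribosome), -0.27 (translation factors), -0.091 (proteasome), -0.34 (chaperones), -0.16 (ER folding), -0.25 (splicing), -0.19 (protein breakdown and glucocorticoid), -0.076 (immediate early), -0.13 (neuromuscular junction), -0.27 (nuclear long noncoding), 0.30 (fibroblast and matrix), 0.25 (lymphocyte), 0.21 (olfactory receptors), 0.21 (vomeronasal receptors), 0.19 (keratin associated) and 0.16 (taste receptors). With each array divided by its SD they were 0.11 (muscle identity), 0.49 (fast fibre), 0.57 (glycolysis and glycogen), -0.088 (mitochondrial ribosome), -0.11 (translation factors), -0.17 (splicing), -0.027 (nuclear long noncoding), 0.081 (olfactory receptors) and 0.028 (taste receptors). With cyclic loess they were 0.012 (muscle identity), -0.060 (nuclear long noncoding), -0.007 (keratinocyte), 0.064 (olfactory receptors), 0.050 (keratin associated), 0.025 (taste receptors) and -0.045 (zinc finger). With median centring alone they were -0.55 (respiratory chain), -0.48 (citrate cycle), -0.24 (mitochondrial ribosome), -0.32 (cytosolic ribosome), -0.31 (translation factors), -0.14 (proteasome), -0.38 (chaperones), -0.20 (ER folding), -0.30 (splicing), -0.24 (protein breakdown and glucocorticoid), -0.12 (immediate early), 0.13 (clock), -0.18 (neuromuscular junction), -0.31 (nuclear long noncoding), -0.29 (smooth muscle and pericyte), 0.26 (fibroblast and matrix), -0.013 (satellite cell and myogenic), -0.020 (keratinocyte), 0.17 (olfactory receptors) and 0.16 (vomeronasal receptors). Among genes above the median level they were 0.35 (cell cycle), 0.14 (neuromuscular junction), -0.57 (nuclear long noncoding), 0.25 (Schwann), 0.18 (satellite cell and myogenic), 0.43 (olfactory receptors), 0.29 (vomeronasal receptors) and -0.045 (keratin associated). With probe sets averaged the median that moved was -0.46 (nuclear long noncoding). In forelimb arrays alone they were -0.20 (respiratory chain), 0.0065 (cytosolic ribosome), 0.0048 (translation factors), -0.28 (chaperones), 0.081 (ER folding), -0.010 (splicing), 0.17 (immediate early), 0.053 (clock), 0.80 (interferon response), 0.12 (neuromuscular junction), 0.097 (lymphocyte), -1.12 (white adipocyte), -1.03 (brown adipocyte), 0.049 (Schwann), 0.088 (keratinocyte), 0.056 (olfactory receptors), 0.013 (vomeronasal receptors), -0.056 (defensins), 0.014 (taste receptors), -0.030 (zinc finger) and 0.62 (small nucleolar RNA). In hindlimb arrays alone they were -0.32 (muscle identity), -0.44 (respiratory chain), -0.10 (immediate early), 0.33 (clock), 0.045 (cell cycle), 0.17 (Hox), 0.28 (fibroblast and matrix), 0.11 (lymphocyte), -0.22 (brown adipocyte), -0.15 (Schwann), 0.11 (keratinocyte) and 1.28 (small nucleolar RNA). Against tibialis anterior alone, added after the data were seen, they were -0.11 (muscle identity), -0.13 (fast fibre), -0.16 (fatty acid use), -0.17 (glycolysis and glycogen), 0.057 (mitochondrial ribosome), -0.14 (translation factors), -0.052 (chaperones), 0.10 (protein breakdown and glucocorticoid), 0.24 (neuromuscular junction), 0.19 (Hox), 0.087 (lymphocyte), 0.44 (white adipocyte), -0.43 (brown adipocyte), 0.035 (Schwann), 0.27 (satellite cell and myogenic), 0.13 (keratinocyte) and 1.30 (small nucleolar RNA). Leaving out 1 array at a time gave 547 to 1039 higher calls, the most without triceps, and list medians of -0.44 to -0.29 (respiratory chain), -0.028 to 0.049 (ER folding), 0.20 to 0.36 (clock), 0.076 to 0.18 (cell cycle), -0.15 to 0.18 (neuromuscular junction), 0.25 to 0.56 (fibroblast and matrix), 0.051 to 0.26 (satellite cell and myogenic), -0.043 to 0.13 (keratinocyte), 0.086 to 0.12 (olfactory receptors), 0.044 to 0.13 (keratin associated), 0.071 to 0.22 (defensins) and 0.022 to 0.095 (taste receptors). The neuromuscular junction median was lowest without tibialis anterior and highest without soleus. The cause of each shift was not tested. Of the other list values 284, and of those without 1 array 262, stayed within the SD between arrays, while 114 and 18 did not. No paired analysis was possible because each muscle has 1 array and the replicate numbers only name arrays. No detection call was used here, which limits what low levels show.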

Other observations

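Probe sets with no gene named, looked at after the other values were seen, held calls as well. Of 16010 such probe sets 767 (4.79%) were called higher in the narrow arrays and 933 (5.83%) lower after quantile normalization. As deposited 784 (4.9%) were called higher and 940 (5.87%) lower. Over all named genes the shares were 2.69% higher and 4.36% lower after normalization, and 2.46% and 6.6% as deposited. Their median level was 2.72.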
